A study of Homo sapiens with 24 samples.

Results

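HCC1937 and HCC1395 are 2 human cell lines grown from triple-negative breast cancers, and their vehicle-treated (DMSO) state was compared gene by gene. HCC1937 DMSO was represented by 3 libraries (A, B and C) and HCC1395 DMSO by 3 more of the same letters, so 6 of the 24 libraries of the series entered the comparison. The genes were all those that passed a low-count filter, 17655 in number, of which 13894 were protein-coding. The labels name both lines as breast cancer cells and describe medium, passaging and time of exposure only for another line. The other libraries used were HCC1937 and HCC1395 with 5 µM tazemetostat, which blocks the histone methyltransferase EZH2, together with 5 µM ipatasertib, an inhibitor of the kinase AKT (EZH2i+AKTi, 3 libraries each), and HCC38 DMSO (3 libraries), another line of the same kind of tumour. Each line is a single culture model of 1 tumour, and nothing in the labels says that the libraries of a line came from separate cultures. The p-values therefore measure the spread between libraries only, which may be technical.

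Triple-negative breast cancer is defined in the clinic by the absence of oestrogen receptor, progesterone receptor and HER2 amplification, and the class holds tumours of several kinds of cell state. Normal mammary ducts have an inner luminal layer, marked by keratins 7, 8, 18 and 19 and by the transcription factors GATA3 and FOXA1, and an outer basal layer, marked by keratins 5, 14 and 17 and by TP63. Cells that lose E-cadherin and gain vimentin, N-cadherin and ZEB1 are described as mesenchymal. Loss of the brakes of the PI3K-AKT and RB pathways is common in tumours of this class, and both pathways are described here by line.

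PolyA-selected RNA was measured as reads counted per gene. HCC1937 libraries held 40986840, 45353388 and 47370609 counts, and HCC1395 libraries 38380738, 35707039 and 36860903. Levels are given as CPM, counts-per-million after scaling by the trimmed mean of M values (TMM). They are not divided by gene length and are compared between lines for 1 gene at a time. A log2 difference is HCC1937 over HCC1395, so that a positive value means higher in HCC1937.

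Some whole-library measures moved with the line. Mitochondrial genes took 4.81, 6.37 and 6.13% of counts in HCC1937, against 3.92, 3.77 and 3.87% in HCC1395. The protein-coding ones among them took 2.69, 3.59 and 3.41% in HCC1937, against 3.61, 3.48 and 3.59% in HCC1395, and none of the 13 was called beyond 2-fold. The ribosomal RNA gene MT-RNR2 alone took 1.66, 2.18 and 2.14% in HCC1937 and 0.253, 0.237 and 0.235% in HCC1395. The summed level of 71 histone genes, whose RNAs mostly lack a polyA tail, was 743, 715 and 680 CPM of the library total in HCC1937, against 223, 210 and 220 in HCC1395. The part of these measures in the results was not tested. HCC1937 replicate A stood apart from B and C, with a chi-square per degree of freedom of 19.4 and 22.0 against them, where B against C gave 3.53 and the HCC1395 pairs 5.44 to 6.55. Without it 6370 genes were called beyond 2-fold in place of 6142.

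The 2 lines differed at most genes. At an adjusted p under 0.05 by edgeR's quasi-likelihood test, 14289 of 17655 genes were called (80.9%), 7208 higher in HCC1937 (40.8%) and 7081 lower (40.1%). With so high a background, the counts that follow use a stricter rule, a difference tested to lie beyond 2-fold by edgeR's glmTreat. That rule called 6142 genes (34.8%), 3167 higher in HCC1937 (17.9%) and 2975 lower (16.9%), and in none of them did the 2 groups overlap. Over all 17655 genes the groups did not overlap at 14504 (82.2%), so separation of the libraries alone does not set a gene apart. At least 16-fold separated the lines at 1103 genes higher and 771 lower in HCC1937. The median log2 difference over all genes was 0.01 and the median size 0.81. Pearson correlations of log2 CPM across genes were 0.994 to 0.998 within HCC1937, 0.995 to 0.996 within HCC1395 and 0.683 to 0.697 between lines. By annotated type, the rule called 253 higher and 205 lower of 987 long intergenic RNAs (46.4%), 2397 higher and 2308 lower of 13894 protein-coding genes (33.9%), and 59 higher and 55 lower of 558 processed pseudogenes (20.4%).

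The 5 defining markers of epithelium were higher in HCC1937 beyond 2-fold. In HCC1395, CDH1, EPCAM and KRT19 were below 3 CPM, while KRT8 and KRT18 were expressed at a lower level than in HCC1937. CDH1, which encodes E-cadherin, stood at 640, 716 and 695 CPM in HCC1937, against 0.0807, 0.598 and 0.363 CPM in HCC1395 (log2 difference 10.95, SE 0.38, adjusted p beyond 2-fold 1.08e-11). EPCAM, an epithelial adhesion protein, had 316, 342 and 334 CPM in HCC1937, against 1.37, 2.39 and 1.51 CPM in HCC1395 (log2 difference 7.56, SE 0.14, adjusted p beyond 2-fold 1.82e-17). No library of one line reached a library of the other for either gene, as at every gene called beyond 2-fold. HCC1395 replicate B was the highest of its group in both. KRT8, a keratin of simple epithelium, stood at 3716, 3316 and 3223 CPM in HCC1937, against 29.4, 35.8 and 32.4 CPM in HCC1395 (log2 difference 6.71, SE 0.072, adjusted p beyond 2-fold 7.33e-20). Its partner KRT18 had 1681, 1629 and 1657 CPM in HCC1937, against 29.8, 28.7 and 29.03 CPM in HCC1395 (log2 difference 5.83, SE 0.053, adjusted p beyond 2-fold 1.39e-21). The 2 genes overlap in the annotation on opposite strands, and as the strand setting of the counting is not given in the sources used here, they may share reads. KRT19 had 57.3, 50.6 and 47.4 CPM in HCC1937, against 0.296, 2.08 and 0.252 CPM in HCC1395, with 1 HCC1395 library, replicate B, well above the other two. In bulk RNA, fewer cells of a type and less RNA per cell cannot be told apart.

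**Figure D1:**
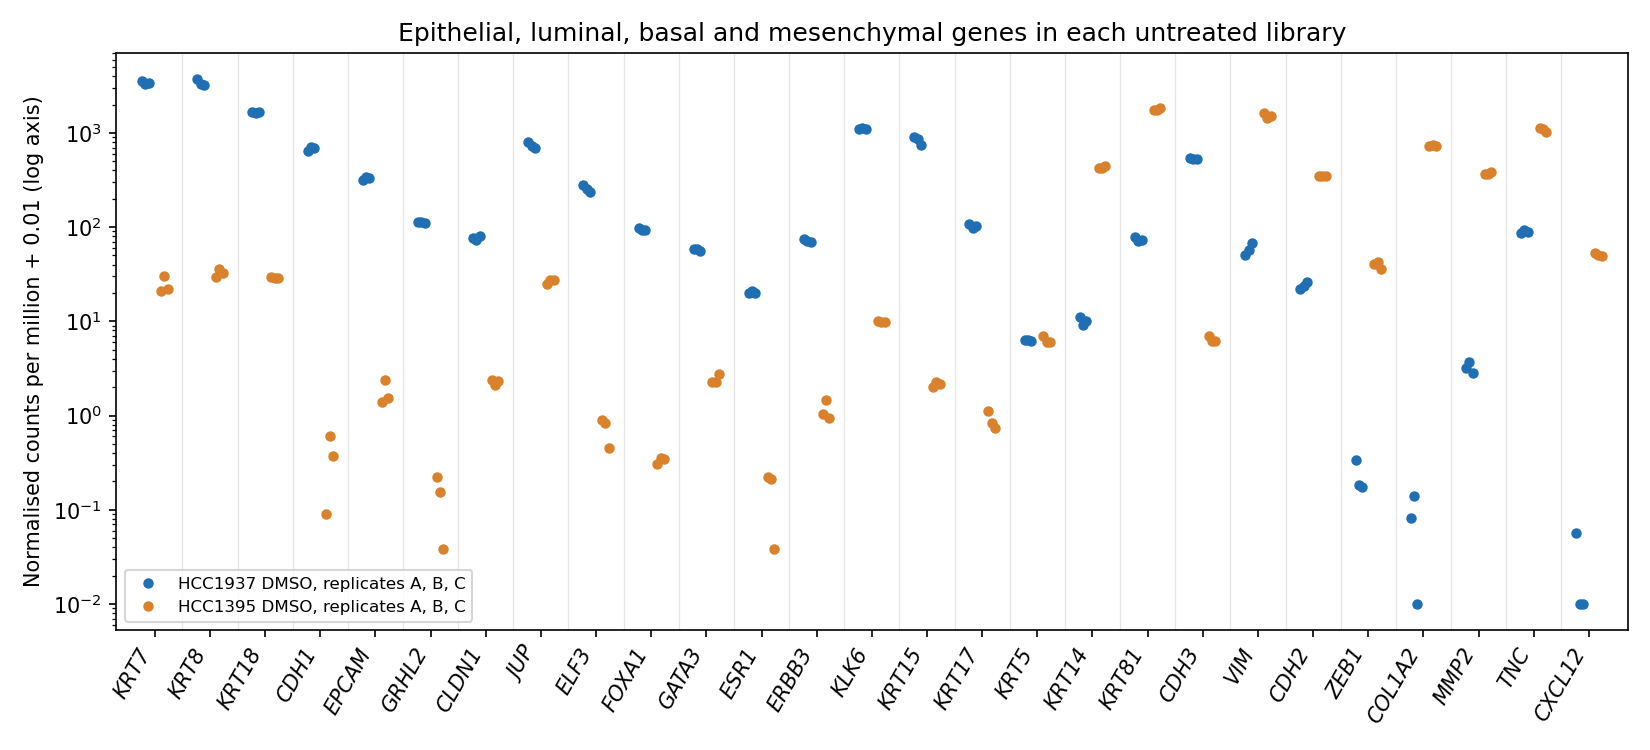
Normalised CPM (plus 0.01, log axis) of 27 genes in each untreated library, with 3 points for HCC1937 DMSO on the left of each gene and 3 for HCC1395 DMSO on the right. Epithelial and luminal genes such as KRT7 and CDH1 are high in HCC1937, KRT14, KRT81, VIM and ZEB1 are high in HCC1395, and KRT5 overlaps.

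Of 34 genes of tight and adherens junctions and their regulators, 28 were higher in HCC1937 beyond 2-fold and none was lower, with a median log2 difference of 5.05. GRHL2, a transcription factor that maintains epithelial junction genes, had 114, 112 and 110 CPM in HCC1937, against 0.215, 0.142 and 0.0280 CPM in HCC1395 (log2 difference 9.72, SE 0.38, adjusted p beyond 2-fold 1.33e-19). CLDN1, a claudin of the tight junction, had 75.9, 73.8 and 81.2 CPM in HCC1937, against 2.37, 2.08 and 2.29 CPM in HCC1395 (log2 difference 5.09, SE 0.099, adjusted p beyond 2-fold 1.53e-18). Desmosomes, the junctions anchored to keratin, held 9 higher and 0 lower genes of 13 (median 1.53). JUP, their plakoglobin, averaged 735 ± 53.1 CPM in HCC1937 and 26.4 ± 1.38 CPM in HCC1395 (SD, n = 3 each). DSP, desmoplakin, averaged 277 ± 12.2 CPM in HCC1937 and 3.81 ± 0.95 CPM in HCC1395 (SD, n = 3 each). For JUP and DSP every HCC1937 library stood above every HCC1395 library, and the groups did not overlap at 82.2% of all genes tested. Of the 13 desmosome genes, 2 were lower in HCC1937 at an adjusted p under 0.05 for any difference, though not beyond 2-fold.

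Simple and luminal keratins were mostly higher in HCC1937, while basal and squamous keratins were divided. Among simple and luminal keratins, 5 of 6 tested were higher in HCC1937 beyond 2-fold and none was lower. For any difference at an adjusted p under 0.05, 1 was lower. KRT7 had 3584, 3279 and 3397 CPM in HCC1937, against 21.1, 30.1 and 21.9 CPM in HCC1395 (log2 difference 7.13, SE 0.12, adjusted p beyond 2-fold 1.24e-10); it overlaps KRT86 and KRT7-AS in the annotation. Among basal and squamous keratins, 5 were higher and 3 lower of 11. KRT15 had 903, 861 and 745 CPM in HCC1937, against 1.99, 2.25 and 2.15 CPM in HCC1395, KRT17 had 107, 97.8 and 104 CPM in HCC1937, against 1.10, 0.826 and 0.727 CPM in HCC1395, and KRT13 had 681, 557 and 438 CPM in HCC1937 with no count in HCC1395. These 3 were high in every HCC1937 library. KRT14, the keratin of basal cells, went the other way, at 11.1, 9.14 and 10.2 CPM in HCC1937, against 425, 424 and 446 CPM in HCC1395 (log2 difference -5.42, SE 0.066, adjusted p beyond 2-fold 3.07e-20), and so did KRT6B, at 0.898, 0.695 and 0.904 CPM in HCC1937, against 68.4, 69.2 and 74.3 CPM in HCC1395. KRT5, the usual partner of KRT14, had 6.31, 6.38 and 6.24 CPM in HCC1937, against 7.02, 6.10 and 6.01 CPM in HCC1395, with the groups overlapping (log2 difference -0.02, SE 0.11, adjusted p for any difference 0.897). KRT81, a hair keratin seen in some breast cancers, had 78.01, 71.95 and 73.5 CPM in HCC1937, against 1744, 1732 and 1835 CPM in HCC1395 (log2 difference -4.57, SE 0.054, adjusted p beyond 2-fold 4.22e-20); KRT81 and KRT86 are similar in sequence and overlap, so their counts are uncertain. TP63, a transcription factor of basal cells, was at 3.85, 4.23 and 3.70 CPM in HCC1937, against 12.8, 14.9 and 14.3 CPM in HCC1395. Basal and myoepithelial markers as a list were divided, with 9 higher and 9 lower of 26.

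Luminal factors were mostly higher in HCC1937. Of 17 luminal transcription factors and receptors tested, 10 were higher and 3 lower (median 2.32). Of 15 luminal surface and secretory markers 13 were higher and none lower beyond 2-fold. For any difference at an adjusted p under 0.05, 1 of these 15 was lower. Their median was 7.29, or 6.99 with genes at 0 in 1 line set at their lower bound. FOXA1, which opens chromatin for hormone receptors, had 97.95, 93.8 and 93.7 CPM in HCC1937, against 0.296, 0.342 and 0.336 CPM in HCC1395 (log2 difference 8.18, SE 0.2, adjusted p beyond 2-fold 2.51e-20). GATA3 had 58.2, 58.8 and 56.04 CPM in HCC1937, against 2.23, 2.28 and 2.74 CPM in HCC1395 (log2 difference 4.58, SE 0.1, adjusted p beyond 2-fold 1.68e-17). ELF3 and EHF, epithelial ETS factors, averaged 257 ± 20.3 CPM in HCC1937 and 0.720 ± 0.238 CPM in HCC1395, and 48.4 ± 1.44 CPM in HCC1937 and 0.0841 ± 0.0506 CPM in HCC1395 (SD, n = 3 each). AGR2, a secretory-pathway protein of luminal cells, had 71.1, 74.2 and 66.9 CPM in HCC1937, against 0.0269, 0.114 and 0 CPM in HCC1395, and SLPI, a secreted protease inhibitor, averaged 305 ± 11.2 CPM in HCC1937 and 1.47 ± 0.298 CPM in HCC1395.

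Receptor genes used in the clinic were measured as well. ESR1, the oestrogen receptor gene, had 20.2, 21.1 and 20.1 CPM in HCC1937, against 0.215, 0.199 and 0.0280 CPM in HCC1395 (log2 difference 7.08, SE 0.38, adjusted p beyond 2-fold 1.79e-15); SYNE1 overlaps it on the opposite strand. PGR, the progesterone receptor gene, did not pass the filter, with 0 counts in HCC1937 and 0, 0 and 3 counts in HCC1395. ERBB2 had 199, 187 and 176 CPM in HCC1937, against 43.7, 44.9 and 47.3 CPM in HCC1395 (log2 difference 2.05, SE 0.059, adjusted p beyond 2-fold 1.03e-12).

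Genes of cornified epithelium and of the epidermal differentiation complex were also high in HCC1937, 13 higher and 1 lower of 16 (median 6.99, or 5.53 with bounds). KLK6, a kallikrein protease, had 1096, 1118 and 1098 CPM in HCC1937, against 10.01, 9.77 and 9.73 CPM in HCC1395 (log2 difference 6.81, SE 0.058, adjusted p beyond 2-fold 5.64e-22). KLK10 had 652, 620 and 614 CPM in HCC1937, against 0.404, 0.285 and 0.336 CPM in HCC1395. LCN2, an iron-binding secreted protein, had 530, 514 and 505 CPM in HCC1937, against 2.31, 2.88 and 2.40 CPM in HCC1395. For all 3 genes every HCC1937 library stood above every HCC1395 library, and the groups did not overlap at 82.2% of all genes tested. The lower gene of the list was S100A8, a calcium-binding protein of inflamed epithelium.

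Mesenchymal genes ran the opposite way: 3 of 30 were higher and 21 lower in HCC1937 (median -2.46). VIM, vimentin, had 50.01, 57.8 and 67.6 CPM in HCC1937, against 1641, 1427 and 1528 CPM in HCC1395 (log2 difference -4.71, SE 0.096, adjusted p beyond 2-fold 2.16e-11). CDH2, N-cadherin, had 22.2, 23.7 and 26.4 CPM in HCC1937, against 349, 348 and 352 CPM in HCC1395 (log2 difference -3.86, SE 0.061, adjusted p beyond 2-fold 2.23e-18). ZEB1, a repressor of E-cadherin, had 0.331, 0.174 and 0.164 CPM in HCC1937, against 40.4, 43.02 and 35.9 CPM in HCC1395 (log2 difference -7.49, SE 0.28, adjusted p beyond 2-fold 1.59e-17). The groups stood apart in every library for all 3 genes, as they did at 82.2% of all genes tested. PRRX1 had 1 count in HCC1937 and 27.4, 29.8 and 29.1 CPM in HCC1395, and TWIST2 had no count in HCC1937 and 39.9, 38.3 and 38.5 CPM in HCC1395; both are transcription factors of mesenchyme. FAP and NT5E were among the 3 higher genes of the list, and FAP averaged 3.14 ± 0.329 CPM in HCC1937 and 0.0656 ± 0.0443 CPM in HCC1395.

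Among matrix genes, 6 collagens were higher and 12 lower of 23 (78.3%, against 34.8% of all genes, median -1.41). Of 30 matricellular proteins and matrix glycoproteins 7 were higher and 17 lower (median -2.13). BGN, the proteoglycan biglycan, had 0.0473, 0 and 0.0616 CPM in HCC1937, against 2074, 1974 and 2180 CPM in HCC1395. COL1A2, a chain of type I collagen, had 0.0709, 0.130 and 0 CPM in HCC1937, against 725, 750 and 728 CPM in HCC1395, and COL8A1 had 1.47, 1.15 and 1.33 CPM in HCC1937, against 379, 407 and 414 CPM in HCC1395. Some collagens were higher in HCC1937, among them COL4A5, a basement membrane chain, at 52.8, 52.5 and 53.7 CPM in HCC1937, against 0.135, 0.285 and 0.0839 CPM in HCC1395. Of 27 matrix proteases and inhibitors, 5 were higher and 12 lower (63%). MMP2 had 3.21, 3.67 and 2.81 CPM in HCC1937, against 370, 367 and 383 CPM in HCC1395 (log2 difference -6.85, SE 0.083, adjusted p beyond 2-fold 5.21e-21), and MMP14, which activates it, had 0.543, 0.629 and 0.596 CPM in HCC1937, against 225, 239 and 234 CPM in HCC1395.

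Markers of other cell types were summed in each library, as CPM of the library total without TMM scaling. The 10 fibroblast markers summed to 19.7 to 21.1 CPM in HCC1937 and 765 to 798 in HCC1395. COL1A2 made up most of the HCC1395 sum, while PDGFRA was at 2.56, 2.34 and 2.10 CPM in HCC1395, and 4 of the 10 (COL3A1, DCN, LUM and POSTN) did not pass the filter. The 10 endothelial markers summed to 42.7 to 46.7 CPM in HCC1937 and 4.17 to 5.13 in HCC1395, and the 14 haematopoietic markers to 7.47 to 8.95 CPM in HCC1937 and 2.06 to 2.46 in HCC1395. PTPRC, the leukocyte marker CD45, was at 0.567, 0.651 and 0.596 CPM in HCC1937, against 0.592, 0.598 and 0.559 CPM in HCC1395. The part of other cell types in these differences was not tested.

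**Figure D2:**
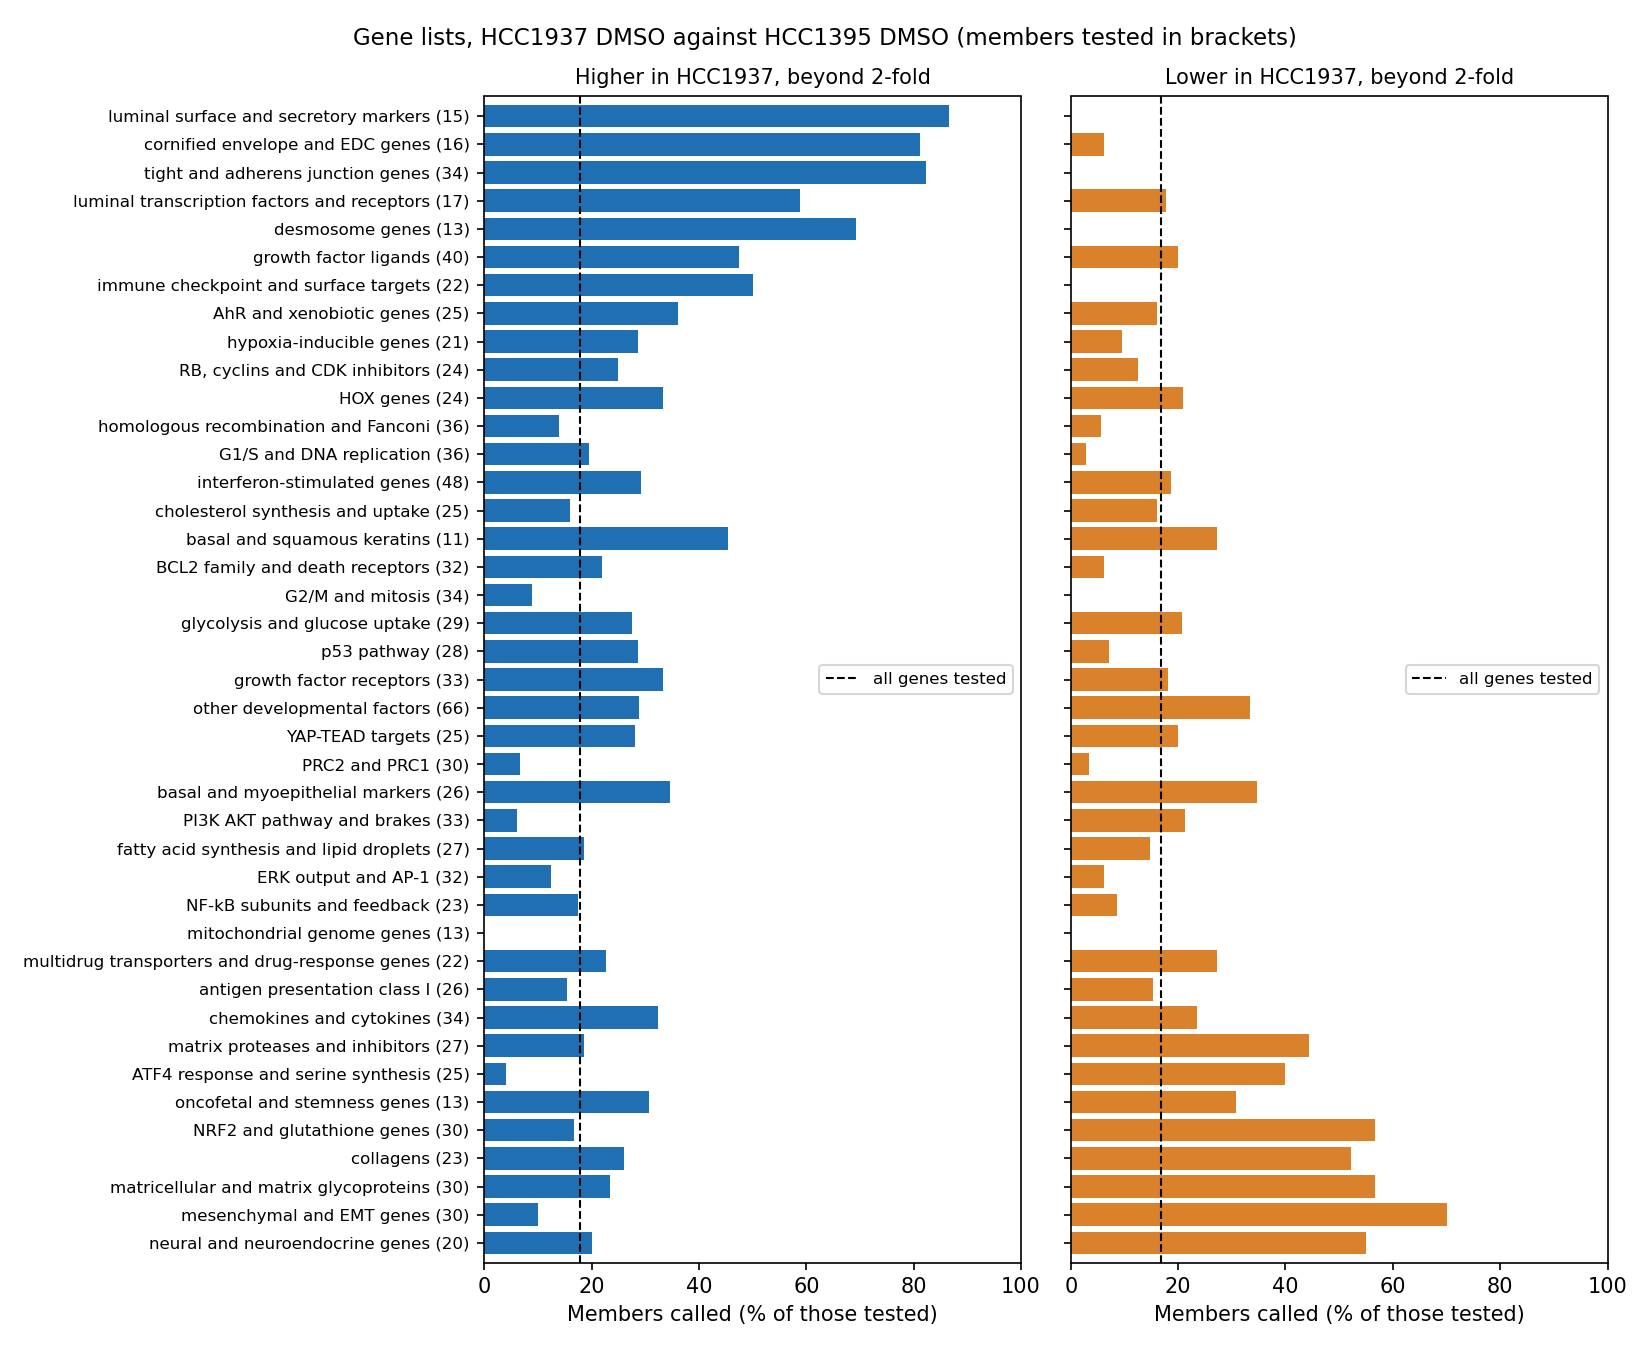
Share of the tested members of each gene list called beyond 2-fold, higher in HCC1937 (left) and lower in HCC1937 (right), for lists with at least 10 genes tested (number in brackets). Dashed lines give the share over all genes tested, 17.9% and 16.9%. Luminal surface, cornified and junction lists have the longest bars on the left, and mesenchymal, matricellular and NRF2 lists the longest on the right.

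A run of neighbouring genes on chromosome 10 was silent in HCC1937. The 7 protein-coding genes from GLUD1 to ATAD1 all had 0 counts in the 3 HCC1937 libraries. In HCC1395, 5 of them stood at 15.01 to 130.1 CPM on average, while NUTM2A and NUTM2D had 17 to 28 counts in a library. GLUD1, mitochondrial glutamate dehydrogenase, had 133, 129 and 129 CPM in HCC1395 and lies at chr10:87050486-87094866 (hg38, minus strand). ATAD1, an ATPase of the mitochondrial outer membrane, had 67.3, 61.7 and 61.4 CPM in HCC1395. In the EZH2i+AKTi libraries of HCC1937, SHLD2 and NUTM2A had 1 count each and the other genes of the run none. MINPP1, PAPSS2, NUTM2A and NUTM2D, the rest of the run, were named after their values were seen. GLUD1 and SHLD2 overlap on opposite strands.

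CDKN2A, which encodes the CDK inhibitor p16 and the MDM2 inhibitor ARF, was silent in HCC1395. It had 364, 295 and 289 CPM in HCC1937 and no count in HCC1395, at least 11300-fold higher in HCC1937 against a floor of 3 counts over the group. Its neighbour CDKN2B, which encodes p15, had 70.02, 64.3 and 62.5 CPM in HCC1937 and no count in HCC1395. MTAP, an enzyme of methionine salvage on the other side, had 53.6, 52.7 and 51.7 CPM in HCC1937 and 0, 1 and 0 counts in HCC1395. The next gene beyond CDKN2B, DMRTA1, had 68, 91 and 110 counts in HCC1937, against 554, 510 and 463 in HCC1395, and on the MTAP side IFNE was below 1 CPM in every library of both lines. DMRTA1 and IFNE were named after their values were seen. In HCC38 neither CDKN2A nor CDKN2B had a count, while MTAP had 154, 126 and 172. In counts, a lost stretch of DNA and genes that are not transcribed cannot be told apart.

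**Figure D3:**
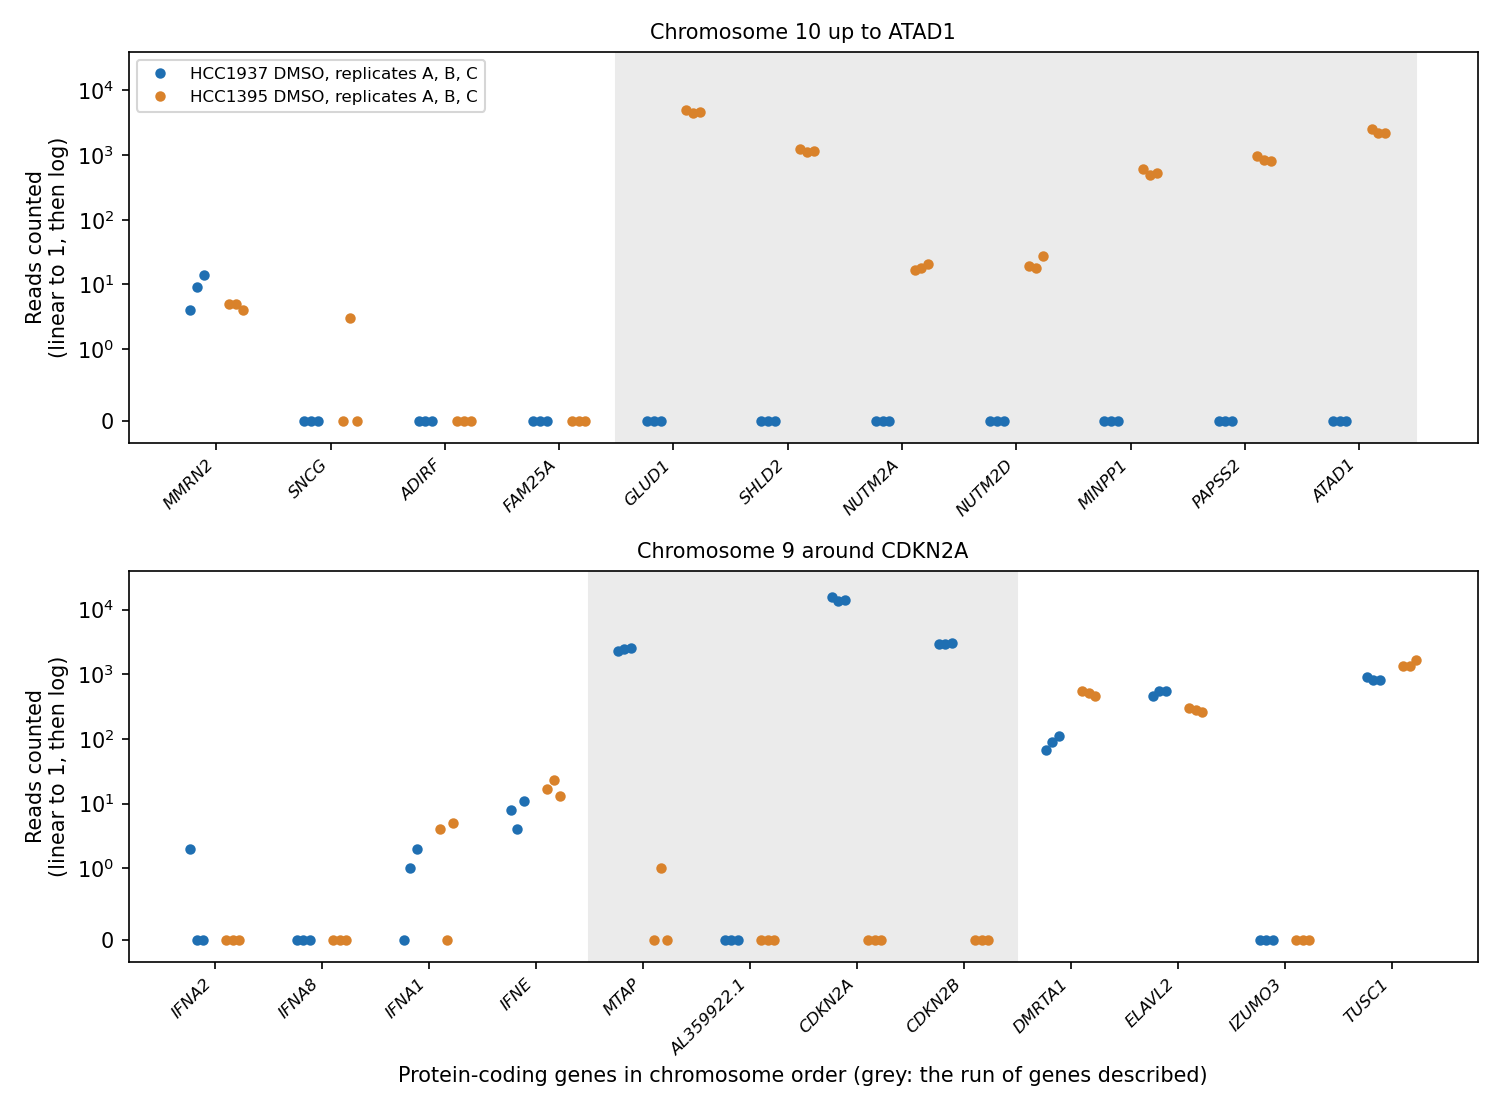
Reads counted per library for the protein-coding genes from 4 genes before GLUD1 to ATAD1 on chromosome 10 (upper) and around CDKN2A on chromosome 9 (lower), in chromosome order, with HCC1937 DMSO left of HCC1395 DMSO at each gene. All 7 genes in the grey stretch of the upper panel are at 0 in HCC1937, and MTAP, CDKN2A and CDKN2B are at 0 or 1 in HCC1395.

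Start regions of CDKN2A and MTAP, and of GSTP1, a glutathione transferase, are printed to show the sequence from which no or almost no polyadenylated RNA was counted in 1 line. Each runs from 250 bases before to 50 bases after a RefSeq start on the gene's own strand (GRCh38.p14), with CG pairs in capitals. CDKN2A has 2 starts in the table, and gene counts do not separate them.
GSTP1 (chr11:67583562-67583861, plus strand): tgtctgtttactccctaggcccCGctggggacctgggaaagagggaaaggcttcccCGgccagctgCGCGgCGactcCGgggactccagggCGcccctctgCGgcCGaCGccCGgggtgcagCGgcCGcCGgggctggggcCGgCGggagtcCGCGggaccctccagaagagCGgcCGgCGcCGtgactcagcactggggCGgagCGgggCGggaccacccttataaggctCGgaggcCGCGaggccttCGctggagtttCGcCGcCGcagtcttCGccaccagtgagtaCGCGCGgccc
MTAP (chr9:21802386-21802685, plus strand): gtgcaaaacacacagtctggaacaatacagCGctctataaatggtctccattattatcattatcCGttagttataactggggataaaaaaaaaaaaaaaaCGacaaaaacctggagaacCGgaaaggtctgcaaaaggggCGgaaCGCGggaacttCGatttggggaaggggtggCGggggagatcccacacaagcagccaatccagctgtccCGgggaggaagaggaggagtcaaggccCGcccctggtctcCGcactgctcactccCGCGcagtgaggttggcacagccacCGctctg
CDKN2A, start 1 (chr9:21995275-21995574, minus strand): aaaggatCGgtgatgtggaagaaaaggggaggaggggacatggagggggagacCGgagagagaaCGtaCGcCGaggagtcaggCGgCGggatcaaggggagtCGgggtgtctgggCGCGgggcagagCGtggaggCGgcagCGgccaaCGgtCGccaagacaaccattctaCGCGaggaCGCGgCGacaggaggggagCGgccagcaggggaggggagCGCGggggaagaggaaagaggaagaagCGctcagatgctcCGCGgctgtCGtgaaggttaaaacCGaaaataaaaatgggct
CDKN2A, start 2 (chr9:21974808-21975107, minus strand): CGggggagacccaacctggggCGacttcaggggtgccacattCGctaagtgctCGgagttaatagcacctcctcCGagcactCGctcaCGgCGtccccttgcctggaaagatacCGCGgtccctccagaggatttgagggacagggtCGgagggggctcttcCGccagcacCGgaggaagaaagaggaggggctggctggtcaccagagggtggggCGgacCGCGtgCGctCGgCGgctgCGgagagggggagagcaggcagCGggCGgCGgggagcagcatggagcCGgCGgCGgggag
GSTP1 holds 36 CG pairs, a number reached by 12.7% of the 35116 start regions in the table, whose median is 14. The CDKN2A regions hold 28 (26.2%) and 26 (30.1%), whereas MTAP holds 15 (48.9%). Over the silent genes as a whole no such comparison could be made, since start regions matched 68 of the 107 silent in HCC1937 (63.6%) and 62 of the 96 silent in HCC1395 (64.6%), under the 80% set as the minimum.

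Some genes were silent in 1 line. Defined as at least 5 CPM in 1 line and at most 3 counts in each library of the other, they numbered 107 protein-coding genes silent in HCC1937 and 96 silent in HCC1395, of which 53 and 30 had no count at all. GSTP1 was the most abundant of the genes with no count in HCC1937, at 1332, 1179 and 1302 CPM in HCC1395 and at least 58100-fold lower in HCC1937. Others with no HCC1937 count were EDIL3, an integrin ligand, with 356, 369 and 350 CPM in HCC1395, CST3, cystatin C, with 162, 135 and 158 CPM, and PCDH10, a protocadherin, with 157, 159 and 167 CPM. In the other direction, VGLL1, a cofactor of TEAD factors, had 120, 124 and 116 CPM in HCC1937 and none in HCC1395, and SLC1A6, a glutamate transporter, had 80.9, 76.1 and 71.4 CPM. Of the genes silent in HCC1937, 28 stood at 5 CPM or more in HCC38, and of those silent in HCC1395, 37 did. Another run of neighbours silent in HCC1937 held EYA1, MSC and TRPA1 on chromosome 8, of which MSC, a transcription factor, had 71.4, 66.4 and 76.1 CPM in HCC1395. EYA1 and TRPA1 were named after their values were seen.

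Across the PI3K-AKT list 2 of 33 tested genes were higher in HCC1937 beyond 2-fold and 7 lower (median -0.01). That is 27.3% of the list, below the 34.8% of all genes. INPP4B, a lipid phosphatase that also opposes PI3K signalling, had 68.5, 77.2 and 75.6 CPM in HCC1937, against 0.161, 0.0285 and 0.168 CPM in HCC1395 (log2 difference 9.22, SE 0.41, adjusted p beyond 2-fold 9.8e-19). SESN3, a sestrin, had 0.756, 0.695 and 0.534 CPM in HCC1937, against 109, 105 and 102 CPM in HCC1395, and PIK3CD, a catalytic subunit of PI3K, had 10.02, 9.27 and 9.73 CPM in HCC1937, against 51.5, 52.8 and 54.1 CPM in HCC1395. PIK3CA, the catalytic subunit most often mutated in breast cancer, had 28.00, 32.1 and 33.5 CPM in HCC1937, against 33.2, 30.7 and 26.9 CPM in HCC1395, with overlapping groups (log2 difference 0.04, SE 0.085, adjusted p for any difference 0.649). AKT1 had 116, 113 and 109 CPM in HCC1937, against 190, 184 and 195 CPM in HCC1395 (log2 difference -0.75, SE 0.052, adjusted p for any difference 2.02e-10). AKT2 had 124, 106 and 105 CPM in HCC1937, against 106, 116 and 115 CPM in HCC1395, with overlapping groups (log2 difference -0.01, SE 0.066, adjusted p for any difference 0.901).

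In the RB list, 6 of 24 genes were higher in HCC1937 beyond 2-fold and 3 lower, 37.5% of the list, near the 34.8% of all genes. RB1 itself had 30.4, 34.3 and 33.7 CPM in HCC1937, against 159, 157 and 154 CPM in HCC1395 (log2 difference -2.25, SE 0.059, adjusted p beyond 2-fold 6.03e-14). CDKN1A, the CDK inhibitor p21, had 130, 111 and 103 CPM in HCC1937, against 19.6, 19.6 and 20.5 CPM in HCC1395 (log2 difference 2.53, SE 0.078, adjusted p beyond 2-fold 6.8e-13), and CCNE2, a cyclin E, had 34.3, 38.3 and 34.6 CPM in HCC1937, against 6.67, 5.47 and 5.73 CPM in HCC1395. CCND1, cyclin D1, had 559, 579 and 607 CPM in HCC1937, against 272, 274 and 287 CPM in HCC1395 (log2 difference 1.07, SE 0.052, adjusted p beyond 2-fold 0.0918), and without HCC1937 replicate A its adjusted p was 0.0113. Of genes of G1/S and DNA replication, 7 were higher and 1 lower of 36 (22.2%, below the 34.8% of all genes, median 0.38). PCNA, the polymerase clamp, was among the higher ones, with 576, 578 and 581 CPM in HCC1937, against 205, 190 and 198 CPM in HCC1395. The lower one was MCM7, a helicase subunit, with 289, 264 and 263 CPM in HCC1937, against 741, 770 and 763 CPM in HCC1395. Of 34 mitotic genes 3 were higher and none lower beyond 2-fold (8.82%, below the 34.8% of all genes). At an adjusted p under 0.05 for any difference, 17 were higher and 10 lower. MKI67, the proliferation antigen, had 357, 418 and 406 CPM in HCC1937, against 474, 530 and 361 CPM in HCC1395, with overlapping groups (log2 difference -0.21, SE 0.15, adjusted p for any difference 0.245). Without HCC1395 replicate C the MKI67 difference was -0.34 with an adjusted p for any difference of 0.000411.

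Among 28 genes of the p53 pathway 8 were higher in HCC1937 beyond 2-fold and 2 lower (35.7%, near the 34.8% of all genes). GDF15, a secreted stress protein, had 41.2, 36.5 and 36.6 CPM in HCC1937, against 5.51, 4.39 and 5.40 CPM in HCC1395. In the list of homologous recombination and Fanconi genes 5 were higher and 2 lower of 36 (19.4%, below the 34.8% of all genes). BRCA1 had 69.2, 77.7 and 74.8 CPM in HCC1937, against 9.63, 9.52 and 9.62 CPM in HCC1395 (log2 difference 2.95, SE 0.071, adjusted p beyond 2-fold 2.41e-15); NBR2 overlaps it on the opposite strand. FANCC had 87.4, 86.2 and 80.2 CPM in HCC1937, against 16.5, 18.3 and 17.8 CPM in HCC1395, and the lower genes were SHLD2, of the chromosome 10 run, and FANCI. Among BCL2 and death receptor genes 7 were higher and 2 lower of 32 (28.1%, below the 34.8% of all genes). BCL2L1, which encodes the survival protein BCL-XL, was at 175, 156 and 156 CPM in HCC1937, against 36.7, 33.8 and 38.9 CPM in HCC1395. BID, a BH3-only protein, was at 130, 122 and 111 CPM in HCC1937, against 20.5, 22.3 and 21.6 CPM in HCC1395. BMF, another BH3-only gene, had 10.3, 11.7 and 8.05 CPM in HCC1937, against 11.9, 11.2 and 10.9 CPM in HCC1395, with overlapping groups (log2 difference -0.18, SE 0.12, adjusted p for any difference 0.17), though without HCC1937 replicate B the adjusted p was 0.0333.

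EZH2 is the drug target of the wider study. It had 86.2, 93.1 and 98.2 CPM in HCC1937, against 140, 134 and 131 CPM in HCC1395, lower in each HCC1937 library (log2 difference -0.54, SE 0.058, adjusted p for any difference 8.62e-08) but short of the 2-fold rule. Of 30 members of the polycomb complexes PRC2 and PRC1, 2 were higher beyond 2-fold (SUZ12 and PHC1) and 1 lower (PHC2), 10% of the list against 34.8% of all genes. SUZ12, a core PRC2 subunit, had 118, 129 and 128 CPM in HCC1937, against 56.5, 55.6 and 57.8 CPM in HCC1395 (log2 difference 1.15, SE 0.056, adjusted p beyond 2-fold 0.00652). All 3 calls were lost by DESeq2's Wald test against a 2-fold bound, and that of PHC1 also without HCC1937 replicate B, HCC1395 replicate A or HCC1395 replicate B (adjusted p 0.0812, 0.153 and 0.0607). Of 24 HOX genes 8 were higher and 5 lower (54.2%), and of 66 other developmental factors 19 were higher and 22 lower (62.1%).

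Of 33 growth factor receptors, 11 were higher and 6 lower in HCC1937 beyond 2-fold, 51.5% of the list against 34.8% of all genes. Over all genes 17.9% were higher and 16.9% lower. FGFR3 had 319, 303 and 340 CPM in HCC1937, against 2.80, 2.88 and 2.49 CPM in HCC1395 (log2 difference 6.88, SE 0.09, adjusted p beyond 2-fold 5.4e-21), and ERBB3, the partner of HER2, had 74.2, 71.4 and 69.9 CPM in HCC1937, against 1.02, 1.45 and 0.923 CPM in HCC1395. DDR2, a collagen receptor, had 0.165, 0.217 and 0.493 CPM in HCC1937, against 222, 228 and 214 CPM in HCC1395 (log2 difference -9.52, SE 0.25, adjusted p beyond 2-fold 2.47e-19). EGFR had 314, 352 and 365 CPM in HCC1937, against 199, 214 and 182 CPM in HCC1395 (log2 difference 0.79, SE 0.066, adjusted p for any difference 4.31e-09), short of the 2-fold rule. Of 40 growth factor ligands 19 were higher in HCC1937 and 8 lower (67.5%). DKK1, an inhibitor of Wnt signalling, had 406, 424 and 427 CPM in HCC1937, against 47.9, 50.1 and 49.02 CPM in HCC1395, and WNT5A had 0.520, 0.890 and 0.596 CPM in HCC1937, against 78.5, 81.4 and 81.2 CPM in HCC1395. CXCL12, a chemokine of stroma, had 52.5, 50.1 and 49.05 CPM in HCC1395 and 2 counts in all in HCC1937.

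Of 30 NRF2 and glutathione genes 5 were higher in HCC1937 beyond 2-fold and 17 lower (73.3%, median -1.25). Of 25 AhR and xenobiotic genes 9 were higher and 4 lower (52%, median 0.91). Over all genes the 2-fold rule called 34.8%. AKR1C2, an aldo-keto reductase, had 14.1, 13.7 and 15.1 CPM in HCC1937, against 3298, 3080 and 3269 CPM in HCC1395 (log2 difference -7.81, SE 0.06, adjusted p beyond 2-fold 4.49e-22), and AKR1C1, a near-identical copy whose reads cannot be told apart with certainty, had 8.20, 7.25 and 6.96 CPM in HCC1937, against 2391, 1880 and 2221 CPM in HCC1395. AKR1C3 had 17.7, 20.2 and 17.6 CPM in HCC1937, against 656, 602 and 580 CPM in HCC1395, and AKR1B10 had 8.06, 7.71 and 7.39 CPM in HCC1937, against 603, 575 and 570 CPM in HCC1395. The 4 genes were low in all HCC1937 libraries. Of 25 genes of the ATF4 response and serine synthesis 1 was higher and 10 lower (median -0.90), with PHGDH, the first enzyme of serine synthesis, at 149, 137 and 130 CPM in HCC1937, against 932, 881 and 976 CPM in HCC1395, and SLC7A11, the cystine importer, at 54.2, 60.7 and 54.3 CPM in HCC1937, against 298, 296 and 272 CPM in HCC1395. Neural and neuroendocrine genes had 4 higher and 11 lower of 20, among them UCHL1, a deubiquitinase, at 14.9, 15.9 and 14.3 CPM in HCC1937, against 755, 622 and 755 CPM in HCC1395. Interferon-induced genes numbered 14 higher and 9 lower among 48 tested (47.9%). Of these, BST2, which tethers budding virus, was at 167, 154 and 156 CPM in HCC1937, against 8.31, 6.89 and 7.63 CPM in HCC1395.

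Medians varied along the chromosomes. Windows of about 50 neighbouring tested protein-coding genes, 278 in all, had medians from -2.44 to 1.57, with 43 above 0.5 and 40 below -0.5. In the lowest, chr18:36777647-57622213, 39 of 48 genes were lower in HCC1937 beyond 2-fold and 3 higher. In the highest, chr3:188947214-198043720, 37 of 51 were higher and 3 lower. By whole chromosome, chromosome 22 had a median of -0.75 (121 of 334 genes lower) and chromosome 20 a median of 0.60 (108 of 375 higher), and the end of chromosome 2 from position 233691607 to 241768816 had 41 of 50 genes lower. A window at the chromosome 5 protocadherin cluster had a median of -1.47, but -0.08 over its 13 genes at 5 CPM or more in both lines. Neighbouring genes are not independent, and RNA alone does not measure copy number.

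**Figure D4:**
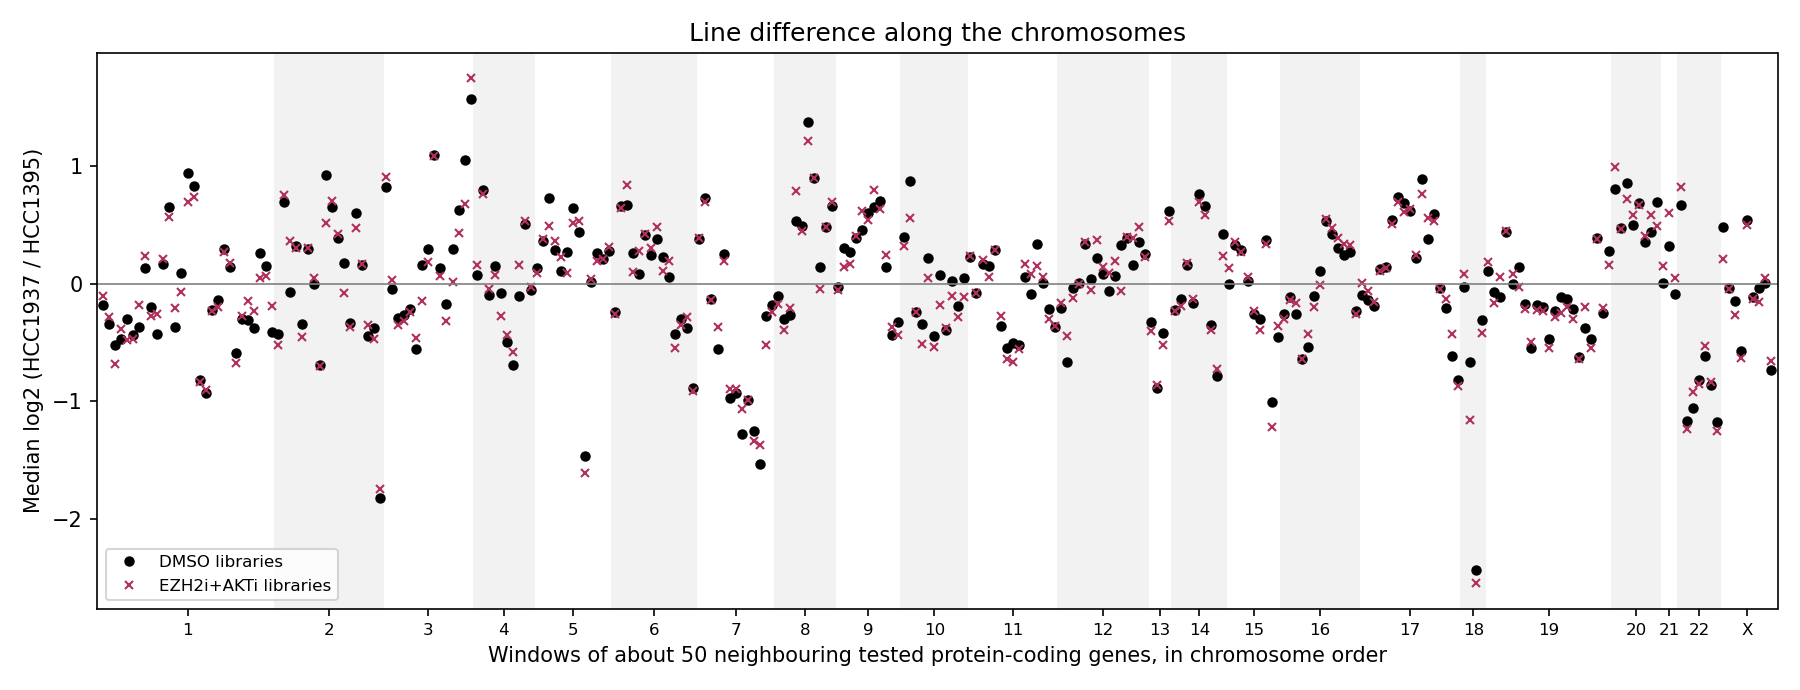
Median log2 difference, HCC1937 over HCC1395, in each of 278 windows of about 50 neighbouring protein-coding genes, with chromosomes alternating in shade. Black points are the DMSO libraries and crosses the EZH2i+AKTi libraries, and both fall lowest in a window of chromosome 18 and highest at the end of chromosome 3.

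The same comparison in the EZH2i+AKTi libraries shares no sample with the DMSO comparison. There 6308 of 18804 genes were called beyond 2-fold (33.5%), 3194 higher in HCC1937 (17%) and 3114 lower (16.6%). Of the 6142 untreated calls, 5988 were tested and 4736 were called with the same sign (79.1%), 5929 had the same sign (99%) and none was called with the opposite sign. The shared calls were 77.1% of the untreated list and 75.1% of the treated list. Of the 43 windows above 0.5 and the 40 below -0.5, 38 and 34 were so in the treated libraries too, and 256 of 278 windows kept their sign.

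Some genes, chosen after their values were seen, had a log2 difference in the treated lines far from that in DMSO. CA12, a carbonic anhydrase, had 0.733, 1.13 and 0.924 CPM in HCC1937, against 27.4, 29.3 and 29.6 CPM in HCC1395, in DMSO (log2 difference -4.94). With both inhibitors it averaged 9.81 CPM in HCC1937 and 12.3 CPM in HCC1395 (log2 difference -0.33). DSP had a log2 difference of 6.19 in DMSO and 2.17 with both inhibitors, COL4A5 8.29 and 3.37, and SESN3 -7.32 and -3.60. KRT5 and BMF, which did not pass the test in DMSO, were lower in HCC1937 with both inhibitors, at 1.05 CPM in HCC1937 and 4.77 CPM in HCC1395 for KRT5 (log2 difference -2.16, adjusted p beyond 2-fold 1.74e-05), and 26.1 CPM in HCC1937 and 101 CPM in HCC1395 for BMF (log2 difference -1.96, adjusted p beyond 2-fold 1.6e-08). Among lists, the 48 interferon-stimulated genes numbered 14 higher and 9 lower in DMSO, and 8 higher and 22 lower with both inhibitors, and the 13 desmosome genes 9 and 0 in DMSO, and 6 and 4 with both inhibitors. Whether these differences changed with treatment was not tested.

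**Figure D5:**
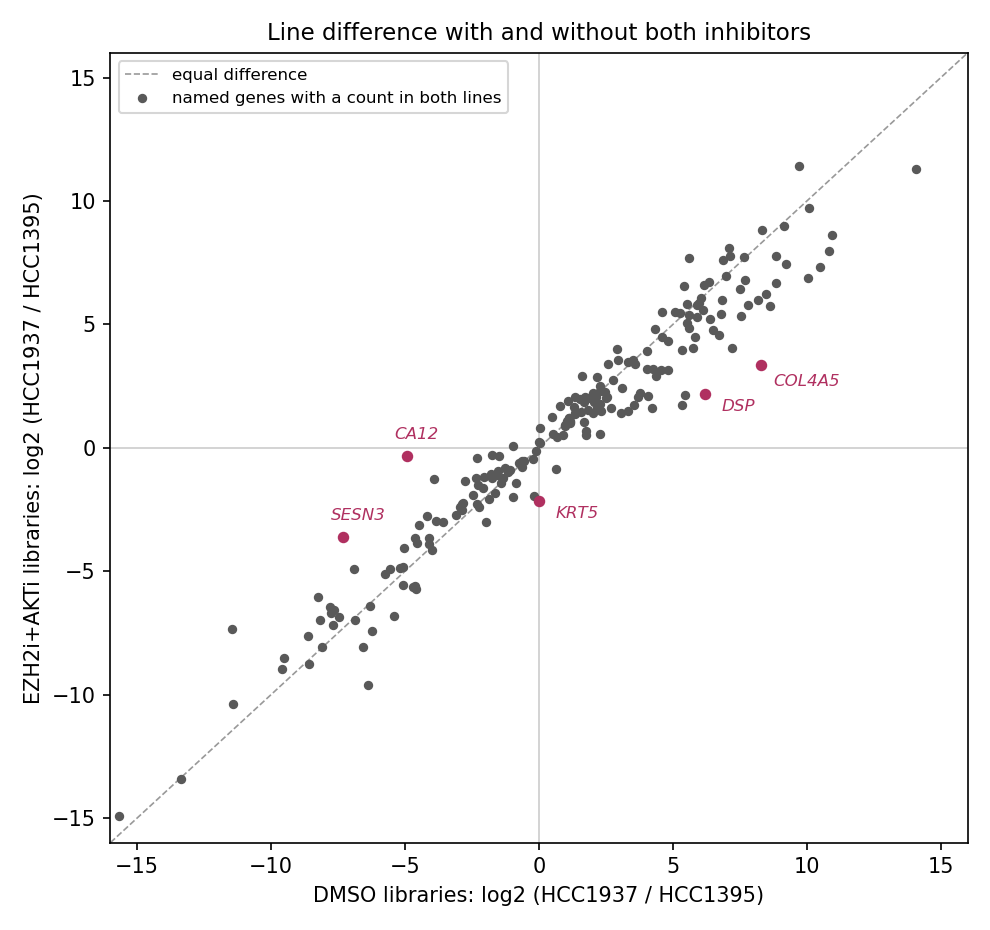
Log2 difference, HCC1937 over HCC1395, of 207 named genes with a count in both lines, in DMSO libraries (x axis) and in EZH2i+AKTi libraries (y axis). The dashed line marks equal differences, and 204 of the 207 genes have the same sign in both.

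HCC38 DMSO was scaled together with the 6 libraries. Of the genes called beyond 2-fold, 3136 higher and 2955 lower in HCC1937 also passed the filter with HCC38 included. HCC38 was nearer to HCC1937 in 53% of the higher and 60.8% of the lower genes, but often lay outside both lines. Among the higher genes it was above both lines at 722, below both at 577, and between them at 940 nearer HCC1937 and 897 nearer HCC1395. Among the lower genes these numbers were 461, 842, 955 and 697. It held EPCAM at 503 CPM and CDH1 at 239 CPM, yet VIM at 943 CPM and no CDKN2A count. ZNF521, a zinc finger factor, was at 0 in both HCC1937 and HCC38, whereas GSTP1 stood at 661 CPM in HCC38.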

How the data were processed

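Per the labels' protocols, RNA was selected with poly-T beads and primed with random hexamers. Per the submitters' processing notes, reads were trimmed with fastp, aligned with HISAT2 2.0.5 to hg38 and analysed with DESeq2. The authors deposited raw counts per gene. For the read counter, the annotation and the strand, the sources used here give nothing, so overlapping genes may share reads: 91 of 239 named genes overlap another tested gene. Gene types and positions were taken from GENCODE 29.

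The 6 DMSO libraries were filtered (edgeR filterByExpr, minimum count 10), scaled by TMM and fitted with edgeR 4.0.16 (quasi-likelihood, robust, no covariates, R 4.3.3). Any difference was tested with glmQLFTest and a difference beyond 2-fold with glmTreat, with Benjamini-Hochberg adjustment over 17655 genes and a threshold of 0.05. The EZH2i+AKTi libraries were fitted apart. Lists, windows, silent genes and HCC38 are described by counts and medians with no test. Totals of 35707039 to 47370609 counts set the precision, and ratios and floors (3 counts over 3 libraries) cover counting error only. Counts were simulated for the DMSO comparison with 200 genes changed, the rest equal between lines, and dispersions taken from the fit. Genes changed 4-fold were called beyond 2-fold in 98% of cases, and genes changed 1.5-fold or 2-fold in 0%. The low-count filter was applied again to the simulated counts, and 17214 genes, changed or not, passed it. Of the 17455 genes simulated as unchanged, not all of which were therefore tested, 21 were called for any difference and 0 beyond 2-fold. The real lines differ at far more genes, so these rates describe the simulated setting only.

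Named genes were the 12 with the largest differences in each direction, overall and among those expressed in both lines, the 4 smallest p in each list, and a fixed panel. Genes that spell out small counts fall outside this rule. The members and lists were chosen with earlier results of these data known. Alternatives were RLE scaling, mitochondrial genes left out, no or a stricter low-count filter, DESeq2 1.42.0, all 24 libraries in 1 fit, a replicate block and each library left out. Some genes of the panel and lists are not reported here, though counts over lists include them.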

Additional observations from a re-analysis of the deposited data

Results flagged for a closer look

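MYC, a transcription factor of growth, was the named gene whose groups stood apart in both comparisons with opposite signs, judged before TMM scaling. In DMSO the groups did not overlap at 82.2% of all genes tested. In DMSO it was lower in HCC1937, at 58.3, 64.3 and 71.8 CPM in HCC1937, against 117, 118 and 124.6 in HCC1395 (log2 difference -0.96). With both inhibitors it had 147, 147 and 139.2 CPM in HCC1937, against 134.6, 130.6 and 131.6 in HCC1395. After scaling the log2 difference there was 0.06, close to no difference, and whether the treated groups stay apart was not examined. CPM here are of the library total, without TMM scaling. The difference between the 2 comparisons was not tested.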

How the results depend on the processing

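Under every alternative run, the counts of called genes over all genes tested stayed within 1.5 times of those reported. Genes called beyond 2-fold in DMSO numbered 4927 with the stricter filter, 7282 with no filter, 5306 with DESeq2, 6149 with RLE scaling, 6121 without mitochondrial genes, 6861 with all 24 libraries in 1 fit, and 6128 to 6370 with 1 library left out. In the EZH2i+AKTi libraries they numbered 5009 with the stricter filter, 5318 with DESeq2, 6809 with all 24 libraries and 6196 to 6534 with 1 library left out. The fit with a replicate block called 6012 genes in DMSO and 6129 in the EZH2i+AKTi libraries. Deviations of same-lettered DMSO libraries correlated at -0.257, 0.035 and -0.14 across genes, and those of differently lettered ones at -0.187 to 0.233. With so few libraries in a line, these values cannot decide whether the letters pair libraries of the 2 lines. The named genes that changed sign were near 0 and uncalled throughout. AKT2 was 0.00 with no filter, 0.02 with all 24 libraries and -0.08 to 0.04 with 1 library left out. KRT5 was 0.01 with all 24 libraries and -0.05 to 0.07 with 1 library left out. PIK3CA was -0.03 to 0.12 with 1 library left out, with a negative value without HCC1937 replicate C (-0.01) or HCC1395 replicate C (-0.03). The cause was not tested. Of 239 named genes 9 lost their 2-fold call with DESeq2 (CD4, CD44, CD74, EPHA2, HLA-DRA, PHC1, PHC2, SUZ12 and TPX2). TPX2 also lost it with the replicate block (adjusted p 0.0522) and without HCC1937 replicate B, HCC1937 replicate C or HCC1395 replicate C (0.0655 to 0.0976), and CD4 without HCC1937 replicate C (0.0963) or HCC1395 replicate C (0.0556). List counts, higher and lower, that moved by over 1.5 times were with DESeq2 those of ERK output and AP-1 (4 and 2 to 2 and 2), PRC2 and PRC1 (2 and 1 to 0 and 0) and class II (4 and 1 to 2 and 0), and with the stricter filter those of chemokines (11 and 8 to 8 and 5) and oncofetal genes (4 and 4 to 4 and 2). Strand and counter, which bear on overlapping genes and near-identical copies, could not be varied.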

Other observations

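Of 22 immune checkpoint and surface target genes, 11 were higher in HCC1937 beyond 2-fold and none was lower (50%, median 1.10). At an adjusted p under 0.05 for any difference, 17 were higher and 3 lower. MSLN, the surface protein mesothelin, had 24.8, 22.7 and 21.6 CPM in HCC1937, against 1.02, 0.969 and 1.43 CPM in HCC1395 (log2 difference 4.33, SE 0.15, adjusted p beyond 2-fold 9.98e-15). Antigen presentation by class I had 4 higher and 4 lower of 26, 30.8% of the list and near the 34.8% called over all genes, with ERAP2, a peptidase that trims antigen peptides, at 36.1, 43.1 and 41.1 CPM in HCC1937, against 3.44, 4.39 and 4.05 CPM in HCC1395, and MICB, a ligand of natural killer cells, at 5.29, 4.69 and 4.80 CPM in HCC1937, against 37.2, 37.1 and 40.3 CPM in HCC1395. Class II had 4 higher and 1 lower of 9, which became 2 and 0 with DESeq2. Among 34 chemokines and cytokines 11 were higher and 8 lower (55.9%). IL18 had 38.8, 46.5 and 46.1 CPM in HCC1937, against 0.0269, 0.0570 and 0.0280 CPM in HCC1395, and CX3CL1 had 1.56, 1.06 and 1.93 CPM in HCC1937, against 116, 124 and 127 CPM in HCC1395, so that these 2 cytokines marked opposite lines. With the stricter filter the chemokine counts were 8 and 5.

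Of 29 genes of glycolysis and glucose uptake 8 were higher in HCC1937 and 6 lower (48.3%). SLC16A3, a lactate exporter, had 185, 146 and 146 CPM in HCC1937, against 1.88, 2.19 and 1.85 CPM in HCC1395 (log2 difference 6.33, SE 0.14, adjusted p beyond 2-fold 3.8e-15). SLC2A3, a glucose transporter, had 0.0945, 0.0651 and 0.164 CPM in HCC1937, against 11.03, 10.9 and 10.3 CPM in HCC1395 (log2 difference -6.58, SE 0.36, adjusted p beyond 2-fold 1.07e-14). Hypoxia-inducible genes were 6 higher and 2 lower of 21 (38.1%), and cholesterol genes 4 and 4 of 25 (32%), both near the 34.8% called over all genes. PLIN2, a lipid droplet coat protein, had 14.6, 16.1 and 14.7 CPM in HCC1937, against 0.672, 0.684 and 0.531 CPM in HCC1395. Among YAP-TEAD targets 7 were higher and 5 lower of 25 (48%). CTGF and CYR61, secreted matrix proteins of this list, were lower in HCC1937 (log2 difference -3.93 and -2.32). Of 22 multidrug and drug-response genes 5 were higher and 6 lower (50%). CDA, cytidine deaminase, was at 96.3, 85.5 and 78.1 CPM in HCC1937, against 1.16, 1.28 and 1.23 CPM in HCC1395. ABCC1, a drug exporter, was at 122, 130 and 125 CPM in HCC1937, against 405, 402 and 374 CPM in HCC1395. Only 5 of 57 cancer-testis antigens passed the filter, and PRAME was the 1 called, with 1 count in all in HCC1937 and 70.2, 66.1 and 67.2 CPM in HCC1395.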
